A study of Mus musculus with 6 samples.

Results

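The 8 genes described here are markers and effector products of mast cells: Cpa3, Mcpt4, Cma1, Tpsb2, Kit, Ms4a2, Fcer1a and Hdc. They were chosen by name, with earlier results of these data known. Of the 8, 6 had a row among the 15176 genes of the deposited table. Ms4a2 and Fcer1a, the beta and alpha chains of the high-affinity IgE receptor, had no row and were not analysed here. All 6 genes with a row had a mean value of at least 10 and were tested, among 15006 genes in all. The labels give the tissue of every library as the inguinal white fat pad (iWAT), which lies under the skin, of mice on a high-fat diet, and the values of 1 library, Steap4AKO replicate 2, go against that label. There were 4 libraries of Steap4f/f mice (replicates 1, 2, 5 and 6) and 2 of Steap4AKO mice (replicates 2 and 3). Steap4f/f mice carry the floxed Steap4 gene, which encodes a metalloreductase, and Steap4AKO mice lack it in adipocytes. The Cre line, age and sex are not given in the sources used here, and the labels do not say that each library came from its own mouse, so the p-values reflect spread between libraries that may be technical.

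Mast cells are tissue-resident cells of the blood lineage that settle in connective tissue, including fat, where they lie along vessels. They depend on Kit, the receptor of stem cell factor, and they fill their granules with proteases, heparin and histamine, which are released when the IgE receptor is cross-linked. In connective tissue mast cells of the mouse the granule proteases are the carboxypeptidase Cpa3, the chymases Mcpt4 and Cma1 (also named mMCP-5) and the tryptase Tpsb2 (also named mMCP-6). Hdc, histidine decarboxylase, makes histamine, and macrophages and other myeloid cells can express it as well.

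The upstream sequences of 3 granule proteases and of Hdc are shown because the first 3 genes had lower means in Steap4AKO and Hdc a higher one. RefSeq (GRCm38.p6) gave a window for 7 of the 8 genes. Each window below holds the 250 bases before the RefSeq start, read 5′ to 3′ on the strand of the gene, which is the minus strand for all 4. Capitals mark a GATA box, the letters GATA after an A or a T and before an A or a G, on either strand, which GATA factors such as Gata2 can bind. The windows are chr3:20242182-20242431 for Cpa3, chr14:55944676-55944925 for Cma1, chr14:56062311-56062560 for Mcpt4 and chr2:126618679-126618928 for Hdc. The whole window of Hdc lies inside the gene span given further on from GENCODE M21, which ends at 126619299. For Mcpt4 the RefSeq start lies a few bases inside that span, which ends at 56062313.
Cpa3: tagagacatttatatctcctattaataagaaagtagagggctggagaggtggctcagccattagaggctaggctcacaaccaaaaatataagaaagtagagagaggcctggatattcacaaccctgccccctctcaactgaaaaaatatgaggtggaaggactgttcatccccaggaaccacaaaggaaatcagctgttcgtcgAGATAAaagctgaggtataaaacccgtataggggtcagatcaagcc
Cma1: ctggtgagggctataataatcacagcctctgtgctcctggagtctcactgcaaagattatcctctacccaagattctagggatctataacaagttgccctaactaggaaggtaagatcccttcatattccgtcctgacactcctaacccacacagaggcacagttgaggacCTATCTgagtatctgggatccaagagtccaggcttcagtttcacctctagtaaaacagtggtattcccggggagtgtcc
Mcpt4: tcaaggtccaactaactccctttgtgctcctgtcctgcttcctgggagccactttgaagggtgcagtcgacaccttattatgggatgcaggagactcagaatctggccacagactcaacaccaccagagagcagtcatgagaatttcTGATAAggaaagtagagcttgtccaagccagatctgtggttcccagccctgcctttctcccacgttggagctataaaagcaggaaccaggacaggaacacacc
Hdc: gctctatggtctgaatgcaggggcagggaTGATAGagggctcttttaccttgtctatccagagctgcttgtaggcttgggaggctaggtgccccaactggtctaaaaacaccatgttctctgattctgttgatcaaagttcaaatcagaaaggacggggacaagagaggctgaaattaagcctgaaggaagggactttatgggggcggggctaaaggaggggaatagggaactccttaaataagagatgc
Each of these windows held 1 GATA box. It began 46 bases before the start in Cpa3 (AGATAA), 79 bases before it in Cma1 (AGATAG, on the opposite strand), 103 in Mcpt4 (TGATAA) and 221 in Hdc (TGATAG). The window of Fcer1a held 1 and that of Ms4a2 held 3, while neither of the 2 windows of Kit held any. Of 32851 windows of this length, 26.5% held at least 1. The letters TATAAA on the strand of the gene, a TATA box, began 31 bases before the start of Cpa3 and 32 before that of Mcpt4, and 7.6% of all windows held them. An E-box of the letters CACATG or CACGTG on either strand, which Mitf can bind, was present in the window of Fcer1a among these genes and in 17.6% of all windows. These matches describe the letters of the windows, and no binding was measured.

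The deposited values added up to 18846321 to 20547925 per library in Steap4f/f, and to 16573561 and 17979641 in Steap4AKO replicates 2 and 3. Steap4 itself ranged from 8310 to 17018 in Steap4f/f and stood at 8313 and 8014 in Steap4AKO (limma, adjusted p = 0.544), so that its level in whole tissue did not check the genotype labels. Steap4AKO replicate 2 stood apart, with 1080 genes at over 2 times the level of any other library, against 20 to 148 such genes in the others. It had 1.37 for Tbx15, a gene of subcutaneous fat that ranged from 660.8 to 1330 in Steap4f/f and stood at 316.1 in replicate 3, and its summed level of 6 epididymis and epithelial genes was 10260, against 32.1 to 78.5 elsewhere. Among these, Crisp1 of the epididymis had 8127 there and at most 3.34 elsewhere. These values do not match the labelled tissue. For the mast cell genes and the tested genes of the related mast cell lists named for their direction, the log2 difference is given with and without this library.

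Transcripts of the 4 granule proteases had 2.44-fold to 3.02-fold lower means in Steap4AKO (4 of 6 genes, where 47.8% of all genes had a lower mean log2 value), Kit had a 1.04-fold higher mean, and Hdc had a 2.02-fold higher mean. By limma 0 of the 6 genes passed an adjusted p of 0.05, where 0.473% of all genes tested did. Of the 6, 4, the proteases, had an unadjusted p under 0.05, against 18.1% of all genes. These 4 varied together over the libraries (Pearson r 0.76 to 0.99) and are not independent results. The list was also chosen with earlier results known, so this contrast is a description. The median log2 difference of the 6 genes was -1.31, and that of all genes tested was 0.02. Each log2 difference subtracts the Steap4f/f mean of log2(value + 1) from the Steap4AKO mean. In bulk tissue, fewer mast cells and less of these RNAs per mast cell cannot be told apart.

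**Figure D1:**
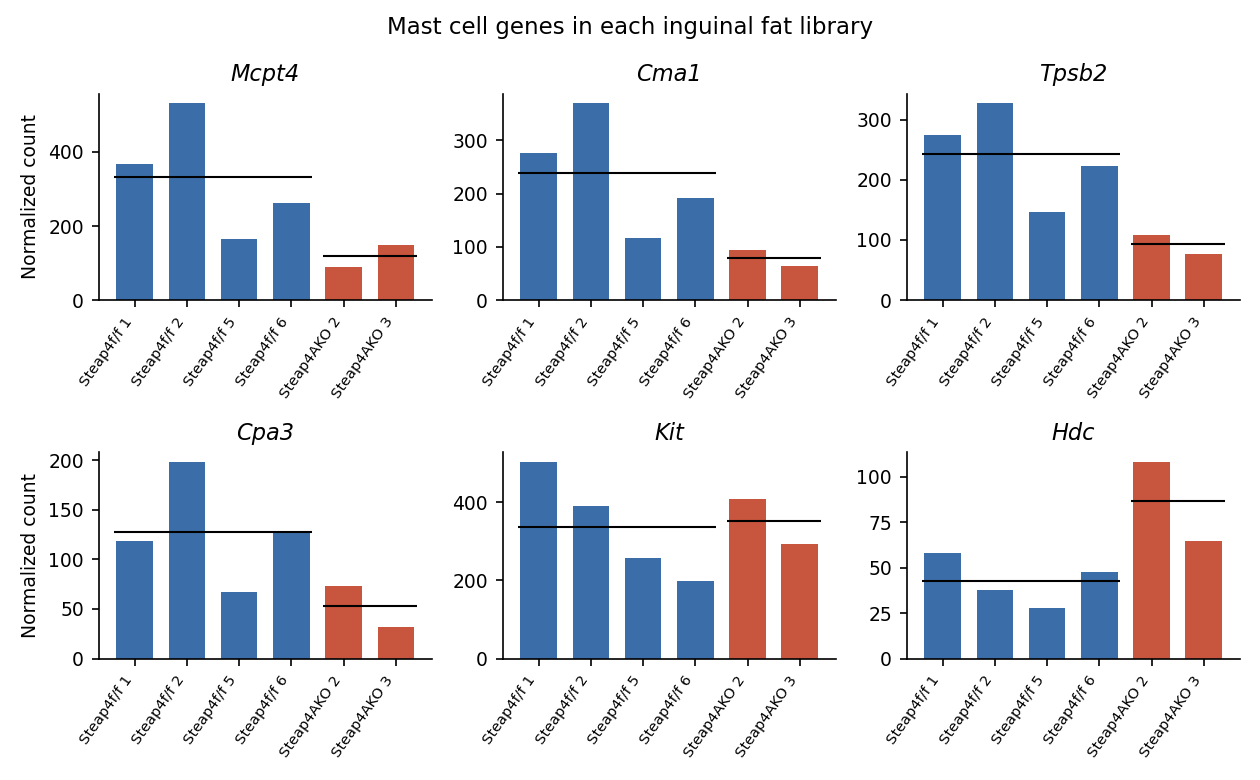
Normalized count (y axis, from 0) of the 6 mast cell genes in each library (x axis). Blue bars are the 4 Steap4f/f and red bars the 2 Steap4AKO libraries, and black lines are group means. Mcpt4, Cma1 and Tpsb2 lie lower in both Steap4AKO libraries than in any Steap4f/f library, Hdc lies higher in both, and Cpa3 and Kit overlap.

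Tpsb2 is a tryptase that is stored in granules bound to heparin (ENSMUSG00000033825, chromosome 17, 25366305 to 25369098, plus strand; all coordinates are GRCm38). Its normalized count was 274.7, 327.6, 146.0 and 222.9 in Steap4f/f replicates 1, 2, 5 and 6, and 108.7 and 77.3 in Steap4AKO replicates 2 and 3. Both Steap4AKO libraries lay below the lowest Steap4f/f library, replicate 5. The means were 242.8 ± 77.4 (SD, n = 4) and 93.0 ± 22.2 (SD, n = 2), 2.61-fold lower in Steap4AKO, with a log2 difference of -1.33 (SE 0.35; limma, adjusted p = 0.132). Tpsb2 has a close relative, Tpsab1, on the same chromosome, which had no row. A counting step that divides reads between similar genes leaves the level of Tpsb2 uncertain.

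Cma1 belongs to the chymase family of serine proteases and is expressed in connective tissue mast cells (ENSMUSG00000022225, chromosome 14, 55941451 to 55944675, minus strand). It had 275.8, 369.3, 116.6 and 192.1 in Steap4f/f, against 93.6 and 64.2 in Steap4AKO. Again the groups did not overlap. The means were 238.5 ± 108.8 (SD, n = 4) and 78.9 ± 20.7 (SD, n = 2), 3.02-fold lower, with a log2 difference of -1.48 (SE 0.45; limma, adjusted p = 0.172).

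Mcpt4 is the other chymase family gene measured here, and it lies in the same cluster of protease genes as Cma1 (ENSMUSG00000061068, chromosome 14, 56059629 to 56062313, minus strand). Its values were 367.8, 531.4, 164.6 and 261.3 in Steap4f/f, against 90.1 and 149.9 in Steap4AKO. Both Steap4AKO libraries were below every Steap4f/f library, replicate 3 by a small margin below Steap4f/f replicate 5. The means were 331.3 ± 157.1 (SD, n = 4) and 120.0 ± 42.3 (SD, n = 2), 2.76-fold lower, with a log2 difference of -1.37 (SE 0.46; limma, adjusted p = 0.191). Like Cma1, it has relatives in that cluster that may share reads with it. Mcpt1, Mcpt2, Mcpt9 and Cma2, which lie there, had no row.

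Cpa3, the mast cell carboxypeptidase, trims amino acids from the ends of peptides, snake venom toxins among them (ENSMUSG00000001865, chromosome 3, 20215620 to 20242181, minus strand). It had 118.1, 198.2, 67.4 and 128.2 in Steap4f/f, against 73.1 and 31.9 in Steap4AKO. Here the groups overlapped, since Steap4AKO replicate 2 stood above Steap4f/f replicate 5. The means were 128.0 ± 53.9 (SD, n = 4) and 52.5 ± 29.1 (SD, n = 2), 2.44-fold lower, with a log2 difference of -1.29 (SE 0.50; limma, adjusted p = 0.240).

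Of the 6 genes, 3 were therefore lower in Steap4AKO without overlap, against 14.4% of all genes tested, and 1, Hdc, was higher without overlap, against 14.1%. Without Steap4AKO replicate 2, the remaining library was below every Steap4f/f library for all 4 proteases, as it was for 23.4% of all genes, and above them for Hdc, as for 24.4%. In that fit the log2 differences of Tpsb2, Cma1, Mcpt4 and Cpa3 were -1.58, -1.75, -1.01 and -1.87 (limma, adjusted p = 0.372, 0.438, 0.658 and 0.417). Without Steap4AKO replicate 3 they were -1.09, -1.22, -1.74 and -0.70, so that Mcpt4 was furthest from the Steap4f/f mean in replicate 2 and Cpa3 in replicate 3. With 1 library in an arm, limma takes its spread from the other group.

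The spread within Steap4f/f was wide for all 4 proteases. The ratio of the highest to the lowest Steap4f/f library was 2.24 for Tpsb2, 2.94 for Cpa3, 3.17 for Cma1 and 3.23 for Mcpt4. This ratio was above the fold between the group means for Cpa3, Cma1 and Mcpt4 and below it for Tpsb2. Replicate 2 was the highest and replicate 5 the lowest Steap4f/f library for each of them. Relative to the Steap4f/f mean of each gene, the 4 proteases averaged 108, 151, 52.8 and 87.9% in Steap4f/f replicates 1, 2, 5 and 6, and 42.1 and 32.2% in Steap4AKO replicates 2 and 3. Across the 6 libraries the Pearson r of log2 values between pairs of proteases was 0.76 to 0.99 (6 pairs). This is a description, since all genes of a library share its depth and cell makeup, which differ between libraries.

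**Figure D2:**
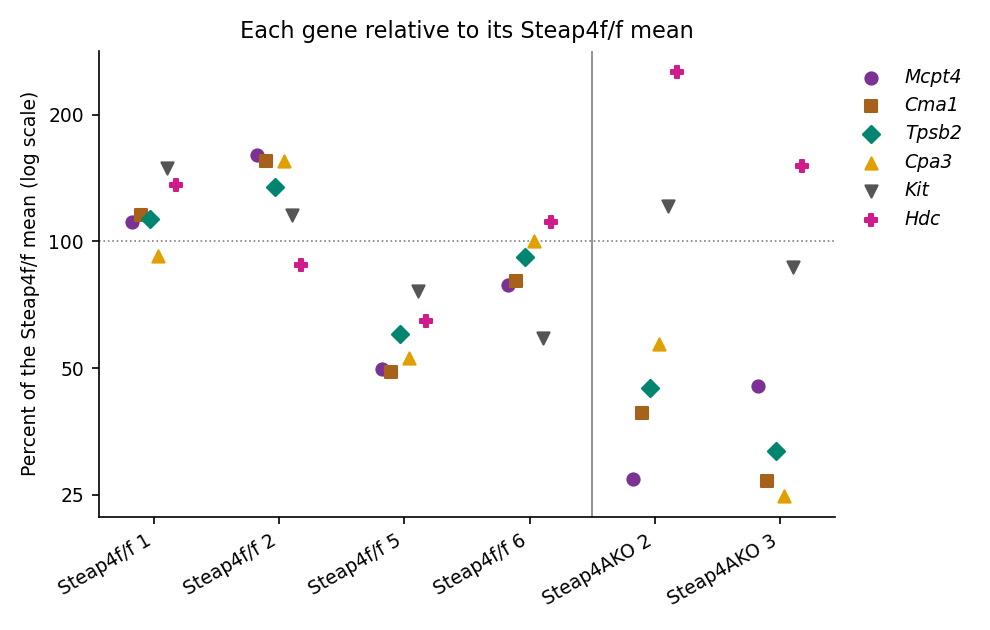
Value of each mast cell gene as a percent of its Steap4f/f mean (y axis, log scale) in each library (x axis); the dotted line is 100% and the vertical line divides the groups. The 4 protease symbols stay close to each other within each Steap4f/f library and lie between 24.9 and 57.1% in Steap4AKO, where Hdc stands at 252.7 and 151.0%.

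Kit, the tyrosine kinase receptor on which mast cell survival depends, is also expressed in melanocytes and in blood progenitors (ENSMUSG00000005672, chromosome 5, 75574916 to 75656722, plus strand). It had 503.2, 389.9, 256.3 and 198.3 in Steap4f/f, against 408.3 and 293.4 in Steap4AKO. Both Steap4AKO libraries lay inside the Steap4f/f range. The means were 336.9 ± 136.8 (SD, n = 4) and 350.8 ± 81.2 (SD, n = 2), with a log2 difference of 0.13 (SE 0.37; limma, adjusted p = 0.872), and that difference was -0.11 without Steap4AKO replicate 2 and -0.09 without Steap4f/f replicate 6. The r of Kit with the proteases was 0.19 to 0.30 over all 6 libraries and 0.34 to 0.66 over the 4 Steap4f/f libraries. Of 6 melanocyte markers listed, 3 had a row, with a summed level of 131.2 to 305.0 in Steap4f/f, against 44.9 and 140.7 in Steap4AKO. In every library but Steap4AKO replicate 2, most of that sum was Sox10, which Schwann cells express as well (104.7 to 290.5 in Steap4f/f, 9.98 and 110.0 in Steap4AKO). The pigment cell genes Pmel and Dct had means of 10.4 and 20.8 in Steap4f/f and of 11.5 and 21.4 in Steap4AKO.

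Hdc had the opposite direction (ENSMUSG00000027360, chromosome 2, 126593667 to 126619299, minus strand). Its values were 58.2, 37.6, 27.7 and 47.6 in Steap4f/f, against 108.1 and 64.6 in Steap4AKO. Both Steap4AKO libraries were above the highest Steap4f/f library, replicate 1, though replicate 3 only by a little. The means were 42.8 ± 13.1 (SD, n = 4) and 86.4 ± 30.8 (SD, n = 2), with a log2 difference of 1.00 (SE 0.44; limma, adjusted p = 0.284), which was 0.63 without Steap4AKO replicate 2 (adjusted p = 0.786). The r of Hdc with the proteases was -0.53 to -0.30 over all 6 libraries and 0.44 to 0.61 over the 4 Steap4f/f libraries. The ratio of Hdc to Cpa3 was 0.19 to 0.493 in Steap4f/f, against 1.48 and 2.02 in Steap4AKO. It combines the differences of Hdc and Cpa3 already given and is no separate result.

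Macrophage markers were higher in the same library in which Hdc was highest. Of 9 markers, among them Adgre1 and Csf1r, 8 had a higher mean log2 value in Steap4AKO and none was listed at 0. Their summed level was 8671 to 9966 in Steap4f/f, 28563 in Steap4AKO replicate 2 and 8325 in replicate 3, where Hdc was still above every Steap4f/f library. Of 5 basophil markers listed, 2 had a row, and the proteases Mcpt8 and Prss34 had none and were not analysed here. Itga2, at a mean too low to be tested, had 1.19 to 8.08 in Steap4f/f, against 31.3 and 8.89 in Steap4AKO. Il3ra had 182.3 to 269.2 in Steap4f/f, against 269.5 and 253.5 in Steap4AKO, with overlap (log2 difference 0.25, SE 0.23, limma, adjusted p = 0.588). The part of other cell types in the level of Hdc was not tested.

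Per kilobase of exon, the order of the mean normalized counts in Steap4f/f was Mcpt4 (299), Cma1 (219), Tpsb2 (152), Cpa3 (84.4), Kit (37.8) and Hdc (6.69). The SDs of these levels per kilobase were 142, 99.8, 48.5, 35.5, 15.4 and 2.05, so that Mcpt4 and Cma1 differed by less than either SD, Cma1 and Tpsb2 by less than that of Cma1 alone, and each later pair by more than either. Inside each of the 4 Steap4f/f libraries, however, every gene stood above the next one in this order. In Steap4AKO the order broke at 2 places: Mcpt4 was above Cma1 in 1 of 2 libraries, and Cpa3 was above Kit in 1 of 2. Lengths are the union of annotated exons, which overstates the length of the RNA for genes with alternative ends.

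Among 22 other genes known from mast cells, 9 had a row, and 0 of them passed the test by limma, with 2 at an unadjusted p under 0.05 (18.1% of all genes). Mrgprb1, a receptor gene of the Mrgpr family, and Slc18a2, the vesicular transporter that loads histamine into granules, shared the direction of the proteases. Mrgprb1 had 30.2, 43.4, 27.4 and 78.2 in Steap4f/f, against 9.96 and 19.8 in Steap4AKO (log2 difference -1.48, SE 0.59; limma, adjusted p = 0.250). Slc18a2 had 30.2, 69.6, 36.9 and 47.6 in Steap4f/f, against 16.4 and 25.7 in Steap4AKO (log2 difference -1.06, SE 0.50; limma, adjusted p = 0.312). For both genes the Steap4AKO libraries lay below all Steap4f/f libraries, at low levels, and without Steap4AKO replicate 2 the differences were -1.02 and -0.75. Mrgprb2, the receptor for secretagogues on mast cells, named after its values were seen, had 2.23 to 33.2 in Steap4f/f, against 5.00 and 13.9 in Steap4AKO.

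Gata2 and Rab27b differed in the other direction. Gata2, a transcription factor of mast cells, blood progenitors and endothelium, had 209.2, 252.1, 343.6 and 347.1 in Steap4f/f, against 606.1 and 339.2 in Steap4AKO, with overlap (log2 difference 0.69, SE 0.31; limma, adjusted p = 0.292). Rab27b, a small GTPase of granule secretion that epithelial cells also use, had 28.4, 29.8, 13.4 and 27.3 in Steap4f/f, against 151.9 and 58.6 in Steap4AKO, without overlap (log2 difference 1.95, SE 0.56; limma, adjusted p = 0.153). Without Steap4AKO replicate 2 these differences were 0.27 for Gata2 and 1.27 for Rab27b. In the whole group of 9, 4 had lower and 5 higher means, and the median log2 difference was 0.16.

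**Figure D3:**
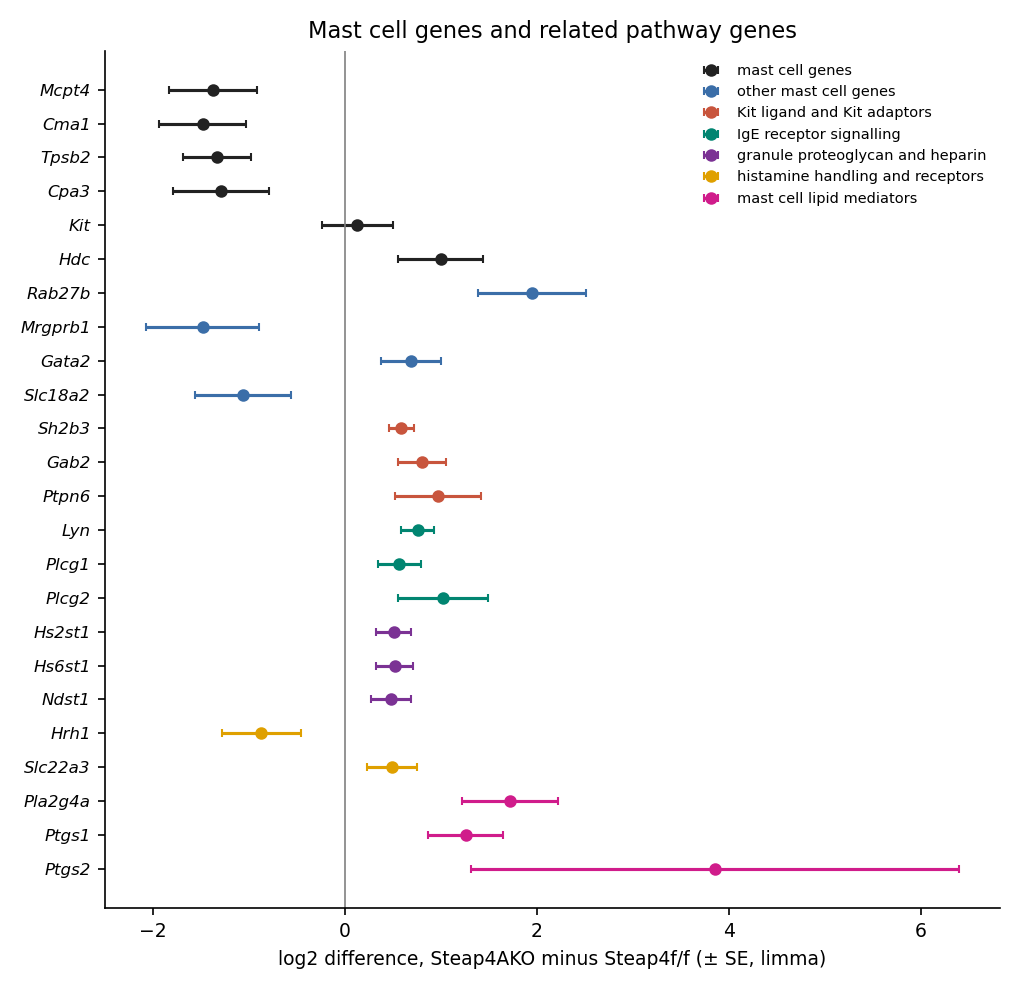
Log2 difference of Steap4AKO minus Steap4f/f with its SE by limma (x axis) for the 6 mast cell genes and for the genes with the smallest p of each related list (y axis, coloured by list; Slc18a2, in 2 lists, is drawn once). The 4 proteases, Mrgprb1, Slc18a2 and Hrh1 lie below 0, and the other genes lie above it.

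The signalling genes around Kit and the IgE receptor did not follow the proteases. Of 9 genes for the Kit ligand and its adaptors, 8 had higher mean log2 values and 0 passed by limma, with 2 at an unadjusted p under 0.05 (18.1% of all genes). Sh2b3, an adaptor that restrains Kit signalling, had 1186, 1218, 1204 and 1232 in Steap4f/f, against 2009 and 1651 in Steap4AKO, a tight control group below both (log2 difference 0.59, SE 0.13; limma, adjusted p = 0.0932). Gab2, a scaffold that links the IgE receptor to PI3 kinase, was higher without overlap too (0.81, SE 0.25; adjusted p = 0.176). Ptpn6, a phosphatase of blood cells, had 148.0 to 201.7 in Steap4f/f, 599.9 in Steap4AKO replicate 2 and 170.8 in replicate 3 (0.97, SE 0.45; adjusted p = 0.304). Sh2b3, Gab2 and Ptpn6 had differences of 0.45, 0.53 and 0.07 without Steap4AKO replicate 2. Kitl, stem cell factor itself, named after its values were seen, ranged from 834.8 to 1820 in Steap4f/f and stood at 1671 and 1564 in Steap4AKO.

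All 13 genes of IgE receptor signalling had higher means, with a median log2 difference of 0.63, and 0 passed by limma, with 2 at an unadjusted p under 0.05 (18.1% of all genes). These genes also serve other myeloid and lymphoid cells. Lyn, the kinase that starts the cascade, had 741.0, 755.7, 719.7 and 664.2 in Steap4f/f, against 1434 and 1031 in Steap4AKO, without overlap (log2 difference 0.76, SE 0.17; limma, adjusted p = 0.0897). The phospholipases Plcg1 and Plcg2 had log2 differences of 0.57 (SE 0.22) and 1.02 (SE 0.47), each with overlap (limma, adjusted p = 0.236 and 0.304). Plcg2 ranged from 105.0 to 142.9 in Steap4f/f and had 451.1 and 123.5 in Steap4AKO replicates 2 and 3. The differences of Lyn, Plcg1 and Plcg2 were 0.52, 0.80 and 0.09 without Steap4AKO replicate 2. The median over the list was 1.39 in Steap4AKO replicate 2, in which macrophage markers were highest, and -0.04 in replicate 3. Fcer1g, the gamma chain that the IgE receptor shares with Fc receptors of other cells, named after its values were seen, had 894.5 in Steap4AKO replicate 2, 271.4 in replicate 3 and 306.6 to 367.8 in Steap4f/f.

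Granule heparin and its carrier gave small differences. Of 9 genes, 8 had higher means (median log2 difference 0.36), 4 were higher without overlap (14.1% of all genes) and 0 passed by limma, with 2 at an unadjusted p under 0.05 (18.1% of all genes). The heparan sulfate enzymes Hs2st1, Hs6st1 and Ndst1, which are expressed widely, had log2 differences of 0.51 (SE 0.18), 0.52 (SE 0.19) and 0.48 (SE 0.21), with adjusted p-values of 0.206, 0.215 and 0.276 by limma. Without Steap4AKO replicate 2 these differences were 0.63, 0.27 and 0.52. Srgn, the core protein of granule proteoglycan in blood cells, named after its values were seen, ranged from 728.1 to 904.0 in Steap4f/f and stood at 996.4 and 757.4 in Steap4AKO.

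Among 8 genes of histamine handling and its receptors, 5 had a row, Slc18a2 from above included. By limma 0 passed, with 0 at an unadjusted p under 0.05 (18.1% of all genes). Hrh1, the H1 receptor, had 50.3, 71.2, 54.8 and 42.2 in Steap4f/f, against 34.3 and 24.3 in Steap4AKO, lower without overlap (log2 difference -0.87, SE 0.41; limma, adjusted p = 0.308). Slc22a3, a transporter that takes up histamine, had 1307 to 2141 in Steap4f/f, against 1825 and 3048 in Steap4AKO (0.49, SE 0.26; adjusted p = 0.362). Hrh1 and Slc22a3 had differences of -1.11 and 0.86 without Steap4AKO replicate 2. Hnmt, the enzyme that methylates histamine, named after its values were seen, had 479.0 to 708.9 in Steap4f/f, against 319.8 and 588.9 in Steap4AKO.

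Of 8 genes for prostaglandins and leukotrienes, 6 had higher means and 0 passed by limma, with 2 at an unadjusted p under 0.05 (18.1% of all genes). Pla2g4a, the phospholipase that frees arachidonic acid, had 37.4, 61.5, 44.8 and 55.6 in Steap4f/f, against 298.0 and 89.8 in Steap4AKO (log2 difference 1.72, SE 0.50; limma, adjusted p = 0.159). Ptgs1, a cyclooxygenase, had 160.4 to 176.1 in Steap4f/f, against 694.8 and 233.5 in Steap4AKO (1.26, SE 0.39; adjusted p = 0.176). Without Steap4AKO replicate 2 the differences of Pla2g4a and Ptgs1 were 0.86 and 0.47. Ptgs2, the inducible cyclooxygenase, had 4786 in Steap4AKO replicate 2 and at most 10.1 in every other library (adjusted p = 0.451), and without that library its mean was too low to be tested. Leukotriene C4 synthase (Ltc4s), named after its values were seen, had 1548 to 1882 in Steap4f/f, against 1704 and 1534 in Steap4AKO. As a list these genes had a median of 1.55 in Steap4AKO replicate 2 and -0.19 in replicate 3.

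Among 12326 genes with a mean of at least 50, the 6 whose pattern over the 6 libraries was most like the mean of the 6 mast cell genes were Neil1 (Pearson r 0.998), Zpr1 (0.991), Rps10-ps2 (0.984), Pcbp2 (0.980), Rpl31 (0.978) and Gm37494 (0.976), with 98 genes above an r of 0.9. None of these 6 is in the mast cell lists. Cnrip1, of the list of other mast cell genes and named after its values were seen, ranked 35 (r 0.939). Against the mean of the 4 proteases it ranked 447 (r 0.821). From the same list, Il1rl1, Mitf, Hpgds, Rab27b and Gata2 had an r of 0.04, 0.035, -0.031, -0.249 and -0.626 with the mean of the 6 mast cell genes. The differences of the first 6 between the groups were small, from -0.46 for Rps10-ps2 to -0.16 for Zpr1 on the log2 scale, and the smallest adjusted p was 0.394 by limma. With 6 libraries such values describe the table and single out no gene.

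Marker sums of other cell types are given beside the proteases. All 16 skeletal muscle markers had lower means, and 8 of them passed the threshold by limma, against 0.473% of all genes. None of the 16 passed without Steap4AKO replicate 2, without Steap4f/f replicate 2, 5 or 6, with a pseudocount of 0.1, with a mean of at least 50 or with the robust prior, and 11 to 13 did without Steap4f/f replicate 1, without Steap4AKO replicate 3 or with array weights. Their summed level was 159201 to 860008 in Steap4f/f, against 2563 and 20645 in Steap4AKO replicates 2 and 3, with Myh7 listed at 0 in 1 or more libraries. In the 4 lists that follow 0 genes passed by limma, against 0.473% of all genes. Of their 8, 9, 6 and 7 genes, 4, 3, 5 and 2 had an unadjusted p under 0.05, against 18.1% of all genes. Of 8 fibroblast and progenitor markers, 7 had lower means, and their sum was 56642 to 75353 in Steap4f/f, against 48442 and 47083 in Steap4AKO. Of 9 adipocyte markers 8 had lower means. The exception, Lep, the hormone leptin, had a 2.99-fold higher mean (log2 difference 1.66, limma, adjusted p = 0.0988), and a log2 difference of 1.49 without Steap4AKO replicate 2. The sum, in which Fabp4 (means of 190023 in Steap4f/f and 119179 in Steap4AKO) and Cfd (means of 93300 and 27814) had the largest differences in level among the 9, ranged from 500979 to 664020 in Steap4f/f and stood at 316145 and 485843 in Steap4AKO, where the list's median log2 difference was -0.78 in replicate 2 and 0.0 in replicate 3. The 6 subcutaneous depot genes had a sum of 2786 to 3228 in Steap4f/f, against 374.1 and 1891 in Steap4AKO. Endothelial markers had a sum of 20578 to 21025 in Steap4f/f, against 21702 and 23695 in Steap4AKO. Their part in the lower levels of the proteases was not tested. Within Steap4f/f, the muscle sum was 159200.9, 671258.5, 516180.6 and 860007.5 in replicates 1, 2, 5 and 6. The 4 proteases averaged 108, 151, 52.8 and 87.9% of their Steap4f/f means there. Any relation between these levels was not tested.

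**Figure D4:**
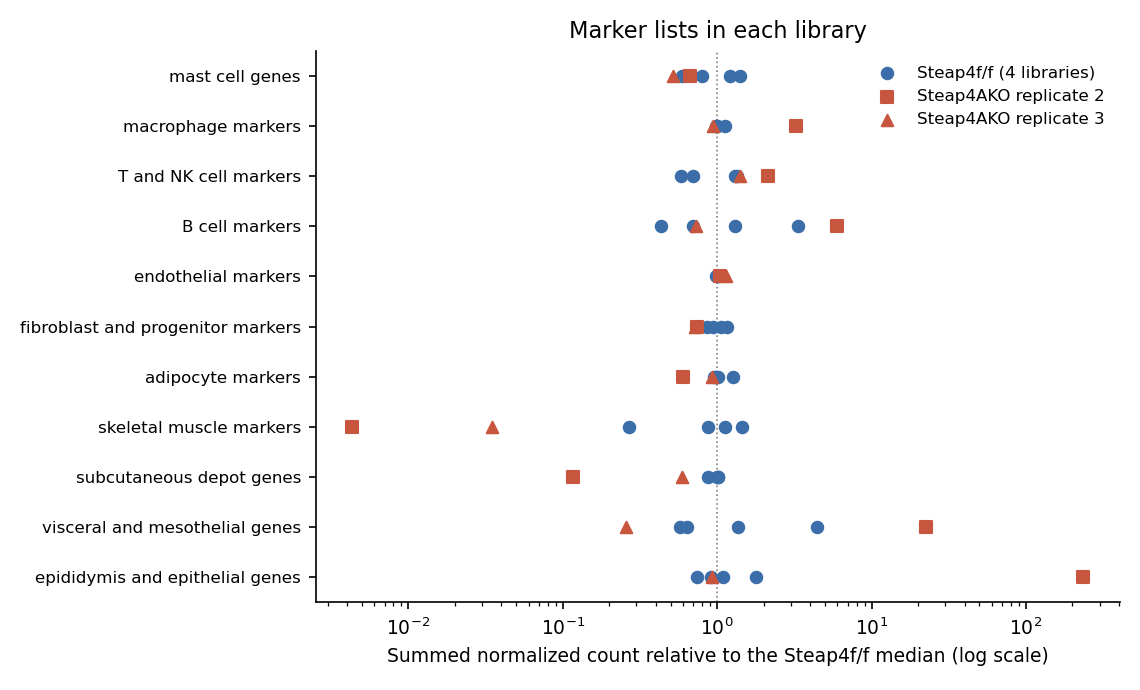
Summed normalized count of each marker list (y axis) in each library relative to the Steap4f/f median (x axis, log scale). Circles are Steap4f/f libraries, the square is Steap4AKO replicate 2 and the triangle replicate 3; replicate 2 lies far from the others for muscle, depot, mesothelial, epididymis and macrophage lists, while the sum over the mast cell genes, which Kit and Hdc raise, overlaps between the groups.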

How the data were processed

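Total RNA of inguinal fat was sequenced in 6 libraries, grouped by genotype from the titles. The authors deposited 1 table of a signal, gene counts normalized with DESeq2 per its name. The submitters' processing notes name GRCm38 and mm10 as builds, and DESeq2 1.12.4 beside STAR 2.7.0e, R 4.2.0 and RSEM 1.3.3. The roles of these tools, the annotation and strandedness are not given in the sources used here. Low values were not whole multiples of 1 read (at most 56.3% within 0.1 of a whole read), so no count test was run, the depth is not known exactly and no counting interval is given. Symbols came from GENCODE M21 by identifier, for 15125 genes.

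Differences were tested with limma 3.58.1 in R 4.3.3 on log2(value + 1), with a variance trend, 2 groups and no covariate, for genes with a mean of at least 10. P-values were adjusted by Benjamini-Hochberg over 15006 genes, two-sided, with a threshold of 0.05. The 8 genes and the lists were chosen with earlier results of these data known. Named genes were the 8, the members of each related list past the threshold or else the 3 with the smallest p, and the 6 genes with the most similar pattern; others are said to be named after their values were seen. Motifs were chosen with the sequences in view. On simulated data for this comparison (5 runs, 14368 to 14398 genes, 200 changed), the fit recovered 38.8% of genes changed 2-fold and 81.4% of those changed 4-fold, with 5.4 false calls per run. How far these rates hold for the measured libraries, where Steap4AKO replicate 2 stood apart, was not tested. In the measured libraries, the 16 skeletal muscle markers had log2 differences of -8.12 to -2.99, and 8 of them passed. Alternatives were other pseudocounts, filters, scalings, a robust prior, array weights and each library left out.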

Additional observations from a re-analysis of the deposited data

Results flagged for a closer look

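Among 37 named genes, 4 had a Steap4f/f library far from the other 3 for the range of the group, and chance flags about 1 gene in 20. Rab27b had 13.4 in Steap4f/f replicate 5, against 27.3 to 29.8 in the other 3. Ptpn6 had 201.7 in replicate 5, against 148.0 to 156.8. Ptgs2 had 10.1 in replicate 1, against 4.23 to 5.05, and Srgn had 904.0 in replicate 1, against 728.1 to 753.5. None of the 6 mast cell genes was among them.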

How the results depend on the processing

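No mast cell gene passed the threshold under any of the 14 alternatives fitted with limma, and the 4 proteases kept lower and Hdc higher means in all of them. The median log2 difference of the 6 genes was -1.37 to -1.13 under other pseudocounts, filters, scalings, the robust prior and array weights, and -1.56 to -0.90 with a library left out. The number of genes past the threshold over all genes, 71, was 1 with a pseudocount of 0.1, 1 with a mean of at least 50, 1 with a robust prior and 119 with array weights, and 1 to 821 with a library left out (238 without Steap4f/f replicate 1, 821 without Steap4AKO replicate 3, 1 without any other). Without Steap4AKO replicate 2, signs changed for Kit (-0.11), Fcer1g (-0.33), Srgn (-0.04), Hnmt (0.04) and Mrgprb2 (0.47), which without Steap4AKO replicate 3 had 0.37, 1.39, 0.35, -0.84 and -0.84, and without Steap4f/f replicate 6 the sign changed for Kit (-0.09). With equal column sums, which moved the median of all genes to 0.21, they changed for Ltc4s (0.10), Zpr1 (0.02) and Rpl31 (0.02). Without Steap4AKO replicate 3, Sh2b3, Ptpn6, Lyn, Plcg2, Pla2g4a, Ptgs1, Ptgs2 and Fcer1g passed (adjusted p = 0.0325, 0.033, 0.0281, 0.0358, 0.0389, 0.0198, 0.00372 and 0.0258 in limma), in a fit whose single Steap4AKO library was replicate 2. The cause of these changes was not tested. No paired analysis was possible because the groups share fewer than 2 replicate numbers. Count tests were not run, since whole reads were not recovered.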
